A study of Homo sapiens with 11 samples.

Results

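Antisense long noncoding RNAs were examined together with the genes they are named after in RWPE1 cells, a non-tumorigenic prostate epithelial line, before and during culture in 1% oxygen. The members are lncRNA genes whose symbol ends in -AS1, other than SNHG genes and EPB41L4A-AS1, with a total of at least 200 counts over the 11 libraries. Of 60676 genes in the table, 1638 were -AS1 lncRNA genes, 1285 of these had a count, and 292 reached the minimum. The members were thus selected on a measured value, the total count, and no list was cut at the upper limit of 300. Just inside the minimum were ZNF497-AS1 with 200 counts, SNAI3-AS1 with 202 and NOP53-AS1 with 202, and just outside were TBC1D8-AS1 with 199, AP1G2-AS1 with 192 and DLG5-AS1 with 191. The 292 identifiers carried 291 symbols, because DNAJC9-AS1 is held by 2 gene identifiers. Each member was paired with the gene named before -AS1, here called its sense partner. Of the partners, 290 pairs held a protein-coding gene and 2 an lncRNA gene.

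A natural antisense RNA is transcribed from the strand opposite to another gene, with which it may share exonic bases, a promoter region or only an intron. Some antisense RNAs act on the gene they overlap through chromatin, transcription or RNA pairing, others act elsewhere, and for most no function is known. In cells short of oxygen, hypoxia-inducible factors (HIFs) accumulate and bind the core motif ACGTG near genes of glycolysis, lactate export, angiogenesis and pH control, among which is PDK1, a sense partner described here.

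The study followed RNA abundance by RNA-seq, counted per gene, in 3 normoxic libraries (0 h), 3 libraries after 6 h of hypoxia, 3 after 12 h and 2 after 24 h. Hypoxic cells were kept at 1% oxygen in medium with 10 mM HEPES buffer, and the labels list no HEPES for 0 h. If the 0 h medium lacked it, the buffer differed wherever the oxygen did, and the part of each cannot be told apart. All libraries came from 1 immortalized line, and the labels do not say that replicates were separate cultures, so p-values measure the spread between these samples. In bulk RNA, fewer cells making a transcript and less of it per cell cannot be told apart. Library totals ran from 27496009 to 49488345 counts, and the scaling factors (TMM, trimmed mean of M values) from 0.539 in the second 24 h library, which stands apart, to 1.32. Of the basal markers, 5 of 5 were at 1 CPM (edgeR's counts per TMM-scaled library total) or more in every library (summed level 8040 to 21000 CPM), and of the pan-epithelial markers 4 of 4 (608 to 2080 CPM). Of the luminal markers 1 of 4 reached that level and 1 was at 0 everywhere, of the fibroblast markers 1 of 4 (summed 27.9 to 60.6 CPM), of the endothelial markers 0 of 3 and of the leukocyte markers 0 of 4. The part of these markers in the results was not tested.

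The kit keeps strand, but the sources used here do not state whether the counting used it. Among genes at least 95% covered by exons of the opposite strand and free of same-strand overlap, 429 of 459 (93.5%) were listed at 0 in all libraries. The figure was 396 of 477 (83.0%) for genes covered to that extent by same-strand exons, and 6155 of 25244 (24.4%) for genes with neither. Genes under opposite-strand exons were thus listed at 0 no less often than genes under same-strand exons, and far more often than genes with neither. For lncRNA genes in introns, counts per kilobase followed those of the host gene with a Spearman's rho of 0.562 on the opposite strand and 0.562 on the same strand. Whether the counting used strand, or left out reads under exons of both strands, was not tested directly. These values cannot tell reads of an antisense gene from reads of its partner, so levels and ratios of pairs that overlap are uncertain on this point. ADIRF, the partner of ADIRF-AS1, was listed at 0 in all 11 libraries, with 89.3% of its 758 exonic bases under exons of the other strand. In all, 20 partners were too low to test, among them OVCH1 with 1 count, FGD5 with 6, IDI2 with 6 and ERICH6 with 14.

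Sequences are shown for the member with the largest rise and for members and partners that the results below turn on. The first 150 bases of SUCLA2-AS1 are from the GENCODE annotation of GRCh38 at chr13:48001389-48001538 on the plus strand. The promoter windows, from 250 bases before to 50 bases after a gene's start, are from RefSeq on GRCh38.p14, whose starts can differ from GENCODE's. SLCO4A1-AS1, one of the members with the largest rise, is at chr20:62666572-62666871 (minus strand). Among the members with the largest fall, ADIRF-AS1 is at chr10:86971191-86971490 (minus) and L3MBTL2-AS1 at chr22:41217578-41217877 (minus). For PDK1-AS1 and PDK1, the only pair with a partner in the hypoxia list in which both genes were higher at 6 h, 30 bases of each window are shown, at chr2:172556602-172556631 (minus) and chr2:172556064-172556093 (plus). Capitals mark ACGTG or, for the other strand, its reverse complement CACGT, and CACGTG holds both.
SUCLA2-AS1: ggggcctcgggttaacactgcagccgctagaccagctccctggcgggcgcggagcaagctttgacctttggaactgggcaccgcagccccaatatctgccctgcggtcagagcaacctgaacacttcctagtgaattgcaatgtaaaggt
SLCO4A1-AS1: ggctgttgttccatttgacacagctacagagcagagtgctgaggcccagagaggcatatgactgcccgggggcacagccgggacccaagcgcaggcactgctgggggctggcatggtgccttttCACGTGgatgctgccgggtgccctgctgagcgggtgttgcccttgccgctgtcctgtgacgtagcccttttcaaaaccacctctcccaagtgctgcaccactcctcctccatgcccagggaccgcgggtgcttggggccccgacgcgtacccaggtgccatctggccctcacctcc
ADIRF-AS1: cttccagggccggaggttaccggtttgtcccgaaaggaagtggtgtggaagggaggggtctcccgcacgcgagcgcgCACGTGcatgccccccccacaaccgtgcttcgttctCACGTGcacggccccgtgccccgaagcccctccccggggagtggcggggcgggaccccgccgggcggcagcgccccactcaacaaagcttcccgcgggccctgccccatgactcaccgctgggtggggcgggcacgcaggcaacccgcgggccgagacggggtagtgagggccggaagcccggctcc
L3MBTL2-AS1: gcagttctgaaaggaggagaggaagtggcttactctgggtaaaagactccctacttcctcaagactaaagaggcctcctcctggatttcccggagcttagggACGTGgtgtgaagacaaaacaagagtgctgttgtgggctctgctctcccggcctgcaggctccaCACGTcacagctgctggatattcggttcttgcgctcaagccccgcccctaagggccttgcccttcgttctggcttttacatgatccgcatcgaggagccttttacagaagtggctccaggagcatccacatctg
PDK1-AS1: gcacctgcaCACGTGcgccgggaggcggga
PDK1: gctgcccgcCACGTccctCACGTaccactc

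ACGTG or CACGT stood in a promoter window of 6790 of 27305 genes (24.9%). A gene with more than 1 window was counted once, as holding the motif if any window did. Of members with a window, 63 of 215 held it (29.3%), and of partners 73 of 242 (30.2%). Of members higher at all 3 times, 1 of the 10 with a window held it. The figure was 27 of 101 (26.7%) for members lower at all 3 times and 35 of 105 (33.3%) for the others. The member windows with the motif thus included strongly lowered genes, ADIRF-AS1 and L3MBTL2-AS1 above among them, and of the members higher at all 3 times SLCO4A1-AS1 alone held it, while PDK1-AS1, higher at 6 and 12 h, held it too. A match of letters is not a binding site, and windows of SUCLA2-AS1, CLASP1-AS1 and KIF23-AS1 were not analysed here.

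Antisense lncRNAs fell far more often than they rose at each time. At 6 h, 28 members were higher (9.59%) and 166 lower (56.8%) than at 0 h at an adjusted p under 0.05, while 25.1% of all genes tested were higher and 27.7% lower (quasi-likelihood test of edgeR, p-values adjusted by Benjamini-Hochberg across the 19981 genes). At 12 h, 27 were higher (9.25%) and 168 lower (57.5%), against 24.2% and 27.1% of all genes. At 24 h, 35 were higher (12.0%) and 169 lower (57.9%), against 29.9% and 31.3% of all genes. The median log2 fold change over all 292 members was -0.92, -0.96 and -1.27 at 6, 12 and 24 h, where that over all genes was -0.00, -0.03 and -0.06. Values below 0 made up 79.8%, 79.1% and 76.4% of members. Summed over members, the level was 1570 to 1610 CPM in the normoxic libraries and, in order of time, 895 to 1010, 807 to 872 and 737 to 791 CPM in the hypoxic ones, so the groups did not overlap.

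The minimum on total counts could be met through 1 group alone, so the counts were repeated among members present in both conditions, a split chosen after seeing the data. In 222 members with their share of 200 counts in the normoxic and in the hypoxic libraries, 18 were higher and 121 lower at 6 h, 16 and 120 at 12 h, and 24 and 131 at 24 h, with medians of -0.78, -0.83 and -1.15. That split was not made over all genes. With a minimum of 10 counts in every library, 158 members were left, of which 12 were higher and 90 lower at 6 h, 15 and 92 at 12 h, and 23 and 82 at 24 h. Of all genes at that minimum, 26.0% were higher and 28.4% lower at 6 h, 24.6% and 27.6% at 12 h, and 31.8% and 33.1% at 24 h. Scaling by library total alone put the median of all genes at -0.32, -0.50 and -0.97 at the 3 times, and members then numbered 15 higher and 193 lower, 16 and 219, and 15 and 227. Of all genes so scaled, 13.6% were higher and 35.7% lower at 6 h, 10.6% and 42.3% at 12 h, and 11.1% and 56.6% at 24 h.

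The sense partners were spread more evenly. Of 271 distinct partners tested, 71 were higher and 81 lower at 6 h, 70 and 84 at 12 h, and 68 and 102 at 24 h, with median log2 fold changes of -0.09, -0.08 and -0.13. Other classes of lncRNA with at least 200 counts were also mostly lower: of 957 such genes, 143 were higher and 441 lower at 6 h (14.9% and 46.1%), with a median of -0.63. Of 250 divergent transcripts, whose symbols end in -DT, 11 were higher and 149 lower at 6 h, with a median of -1.27. The 32 genes named -AS2 to -AS9 gave 3 higher and 18 lower at 6 h. Protein-coding genes numbered 13802, with 28.2% higher and 27.8% lower at 6 h. Not all noncoding classes fell: of 2158 processed pseudogenes, 575 were higher and 123 lower at 6 h and 1196 and 189 at 24 h, with medians of 0.45 and 1.18, and the 14 genes named -IT1 gave 3 higher and 4 lower at 6 h (median 0.46). At 6 h the share of -AS1 genes called lower lay between those of the other lncRNAs and the divergent transcripts. At 24 h it was 57.9%, above both (50.4% and 54.4%). The -DT, -AS2 to -AS9 and -IT1 sets hold all tested genes of these names, without the minimum of 200 counts. Those lncRNAs among them that met it are also among the 957, so the sets are not matched.

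**Figure D1:**
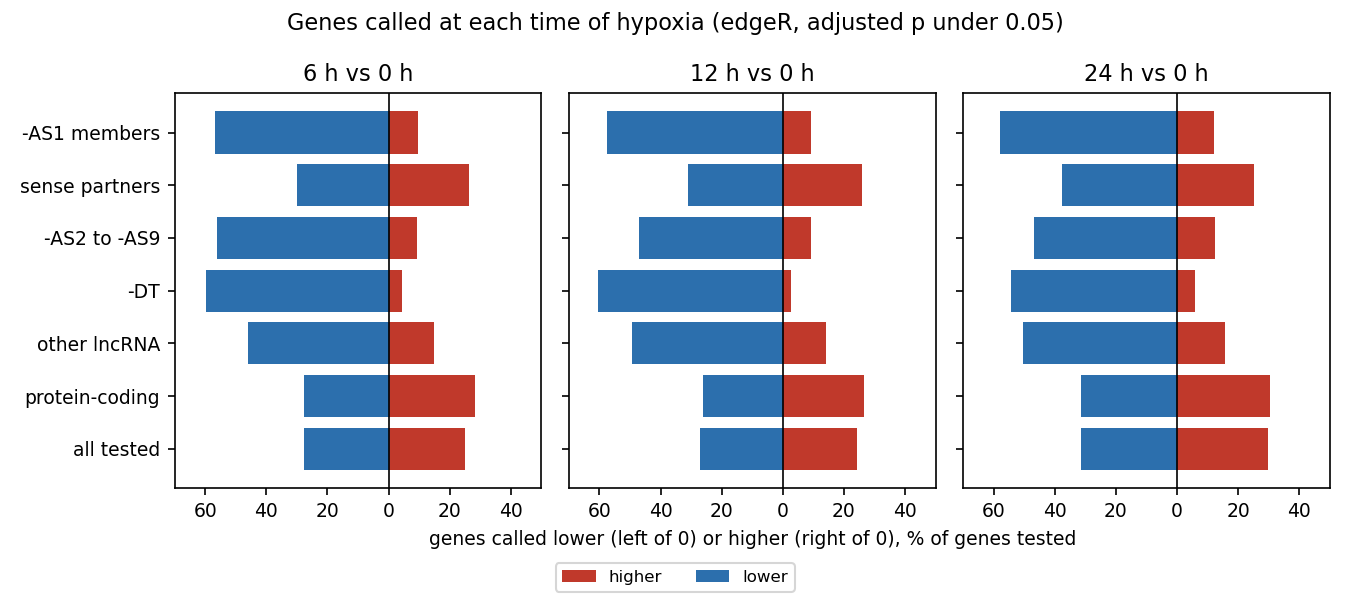
Percent of genes called higher (to the right of 0) and lower (to the left) against 0 h at 6, 12 and 24 h, for -AS1 members, their sense partners, other gene classes and all tested genes. Members show 56.8% lower and 9.59% higher at 6 h, where all tested genes show 27.7% and 25.1%.

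Members called in the same direction at all 3 times numbered 17 higher (5.82%) and 131 lower (44.9%), against 14.8% and 17.9% of all genes tested. In each of these members no hypoxic library overlapped a normoxic one. The calls were made on the same libraries, so this lack of overlap is no separate support. The 17 higher members were those of DENND5B, SUCLA2, FAM83A, ZNF433, HLA-F, PITRM1, SLCO4A1, UBE2D3, PAX8, PARD6G, GLIPR1, PRR34, GPR84, EFCAB10, KIF23, CLASP1 and NOP53. Of the 131 lower members, 104 were lower by more than 1 on the log2 scale at every time and 20 by more than 2, and of the 17 higher members 15 and 6 exceeded these sizes. A further 46 members passed at no time. The higher members had a median exonic length of 1530 bases and a median normoxic level of 0.422 CPM, the lower members 5110 bases and 3.2 CPM, and the 144 others 3660 bases and 1.38 CPM. Of the higher members 6 (35.3%) overlapped the partner's span with no shared exonic base, against 14 lower members (10.7%). Starts within 1000 bases of the partner's start were held by 2 (11.8%) and 43 (32.8%). These shares are descriptions, since the fold changes chose the groups.

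SUCLA2-AS1 had the largest mean rise over the hypoxic times of the members higher at every time. It is a gene of 552 exonic bases at chr13:48001389-48002552 on the plus strand (GRCh38). With no shared exonic base, it overlaps SUCLA2, which encodes the ATP-forming beta subunit of succinyl-CoA synthetase of the citric acid cycle. It had 3, 4 and 6 counts in the normoxic libraries, 388, 539 and 165 at 6 h, 146, 350 and 272 at 12 h, and 171 and 61 at 24 h. The lowest hypoxic library thus stood well above the highest normoxic one, and the hypoxic replicates differed widely among themselves. With so few normoxic counts, SUCLA2-AS1 met the minimum on total counts only through the hypoxic libraries. It is therefore not among the 222 members present in both conditions, and the part of this selection in its rank was not tested. The mean level (± SD, n = 3 libraries, and n = 2 at 24 h) was 0.107 ± 0.0375 CPM in normoxia and, in order of time, 11.3 ± 7.38, 7.17 ± 2.84 and 5.32 ± 2.82 CPM in hypoxia. The log2 fold changes were 6.67 (SE 0.74), 6.03 (SE 0.74) and 5.61 (SE 0.78), with edgeR adjusted p = 1.6e-05, 4.7e-05 and 6.2e-05.

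SUCLA2 rose with it, but less. Its level was 28.3 to 31.2 CPM in the normoxic libraries, 62.8 to 120.0 at 6 h, 71.5 to 86.5 at 12 h, and 83.3 and 85.3 at 24 h. The log2 fold changes were 1.69, 1.36 and 1.50 (SE 0.20, 0.20 and 0.22), and no hypoxic library reached down to a normoxic one. The log2 ratio of antisense to sense counts, formed within each library, rose by 4.65 at 6 h (SE 0.45), 4.54 at 12 h (SE 0.45) and 3.93 at 24 h (SE 0.50), with limma adjusted p = 1.8e-05, 3.1e-05 and 6e-05. Per kilobase of exonic length, the antisense RNA stood at 5.75% of SUCLA2 in normoxia and at 188%, 151% and 102% at 6, 12 and 24 h. Because SUCLA2-AS1 overlaps SUCLA2 outside its exons, its reads and those of unspliced SUCLA2 RNA cannot be told apart if the counting did not use strand.

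CLASP1-AS1 (chr2:121530422-121532705, plus strand) overlaps exons of CLASP1, which encodes a protein that stabilizes microtubule plus ends. It had 2, 1 and 0 counts at 0 h, 37, 41 and 37 at 6 h, 30, 25 and 27 at 12 h, and 72 and 28 at 24 h. With 3 normoxic counts in all, the ratio of pooled, scaled counts was 41.6 at 6 h (95% counting interval 13.9 to 205), 31.3 at 12 h (10.3 to 155) and 97.8 at 24 h (32.5 to 482). These intervals cover counting error only. CLASP1 itself was at 63.6 to 65.2 CPM in normoxia, 74.1 to 96.9 at 6 h, 91.7 to 106.0 at 12 h, and 68.7 and 34.2 at 24 h. Its log2 fold changes were 0.43 at 6 h and -0.32 at 24 h, neither of which passed, and 0.59 at 12 h, which passed (adjusted p = 0.0296, edgeR) but not when any 1 of the 0 h or 12 h libraries was left out (0.49 to 0.63) or with scaling by library total alone (0.13). The 6 h value passed without either 24 h library (0.40 and 0.41). From 12 to 24 h CLASP1 fell by 0.91.

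SLCO4A1-AS1 (chr20:62663019-62666724, minus strand) and SLCO4A1 moved in parallel. SLCO4A1 encodes an organic anion transporter that carries thyroid hormone, among other substrates. The antisense gene had 3, 6 and 4 counts at 0 h, 72, 118 and 96 at 6 h, 77, 106 and 115 at 12 h, and 47 and 19 at 24 h. SLCO4A1 had 348, 202 and 312 counts at 0 h and between 2709 and 5874 in the 8 hypoxic libraries. Every hypoxic library exceeded every normoxic one for both genes. The log2 fold changes were 4.61, 4.66 and 3.81 for the antisense gene (SE 0.43, 0.43 and 0.48) and 4.15, 4.41 and 4.56 for SLCO4A1 (SE 0.22, 0.23 and 0.24). Their log2 ratio changed by 0.35, 0.18 and -0.90 (SE 0.38, 0.38 and 0.42), and none of these passed (limma adjusted p = 0.475, 0.73 and 0.0873).

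UBE2D3-AS1 and GPR84-AS1 were the other members among the 5 with the largest rise. All 5 had few normoxic counts and met the minimum on total counts only through the hypoxic libraries. None of them is among the 222 members present in both conditions, and the part of this selection in the size of their rises was not tested. UBE2D3-AS1 (chr4:102827611-102844099, plus strand), which overlaps exons of the ubiquitin-conjugating enzyme gene UBE2D3, had 5, 10 and 10 counts at 0 h, 80, 55 and 147 at 6 h, 75, 50 and 67 at 12 h, and 27 and 49 at 24 h. Its log2 fold changes were 3.55, 3.14 and 3.18 (SE 0.42, 0.43 and 0.47), those of UBE2D3 were 1.00, 1.09 and 1.56, and the ratio rose by 2.52, 2.04 and 1.54, so both genes rose and the antisense gene more. GPR84-AS1 (chr12:54353792-54466985, plus strand) had 4, 6 and 1 counts at 0 h, 21, 16 and 64 at 6 h, 80, 73 and 54 at 12 h, and 116 and 4 at 24 h. The 24 h libraries thus disagreed. The log2 fold change of 4.83 at 24 h became 1.19 and no longer passed without the first 24 h library, and the 6 h value of 3.17 was 2.73 and did not pass without replicate 3 at 6 h or, at 2.71, without replicate 3 at 0 h. GPR84, a receptor for medium-chain fatty acids, had 1 to 12 counts per library and no call.

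**Figure D2:**
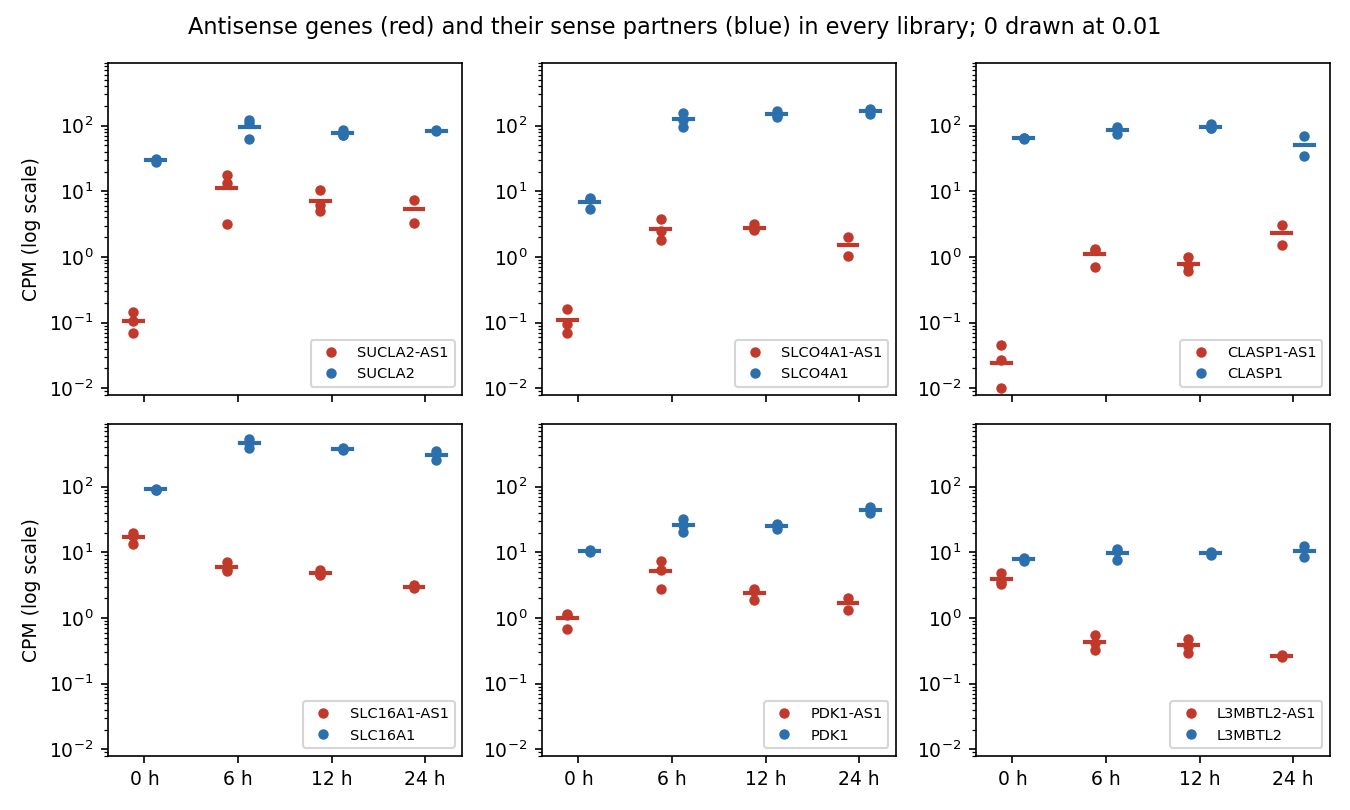
Level in every library (CPM, log axis, values of 0 drawn at 0.01) of antisense genes (red) and sense partners (blue) for the SUCLA2, SLCO4A1, CLASP1, SLC16A1, PDK1 and L3MBTL2 pairs at 0, 6, 12 and 24 h, with bars at group means. SUCLA2-AS1 goes from 0.107 CPM at 0 h to 11.3 at 6 h, and the SLC16A1 pair moves in opposite directions.

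In 6 pairs antisense and sense gene were both higher at all 3 times: those of SUCLA2, SLCO4A1, UBE2D3, FAM83A, PAX8 and GLIPR1. FAM83A-AS1 rose by 2.84, 2.69 and 2.48 on the log2 scale and FAM83A, which encodes a protein of the EGFR signalling pathway, by 2.62, 2.48 and 1.94. GLIPR1-AS1 rose by 1.44, 1.30 and 1.80 and GLIPR1 by 3.05, 2.90 and 3.88, so here the sense gene had the larger values. PAX8-AS1, antisense to a transcription factor of kidney and thyroid development, had 6, 8 and 15 counts at 0 h, 19, 21 and 41 at 6 h, 65, 144 and 102 at 12 h, and 85 and 28 at 24 h. PAX8 itself was low, with 3, 0 and 3 counts at 0 h and 8 to 29 in hypoxic libraries. The ratio of its pooled, scaled counts to normoxia was 7.05 at 6 h (95% counting interval 2.96 to 20.4), 13.5 at 12 h (5.92 to 38.1) and 12.2 at 24 h (4.9 to 36.4).

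Among the members with the largest falls were those of MRPL23, VIPR1, L3MBTL2 and ADIRF. ADIRF-AS1 (chr10:86965345-86971311, minus strand), named after an adipogenesis regulator, had 2362, 1584 and 1754 counts at 0 h, 145, 140 and 197 at 6 h, 171, 198 and 318 at 12 h, and 73 and 73 at 24 h. All hypoxic libraries lay far below the normoxic ones, with log2 fold changes of -3.40, -2.87 and -3.71 (SE 0.19, 0.18 and 0.23). L3MBTL2-AS1 (chr22:41207592-41228500, minus strand) had 145, 179 and 145 counts at 0 h and 5 to 29 in hypoxic libraries, with changes of -3.13, -3.31 and -3.85. L3MBTL2, a Polycomb-group chromatin protein gene, was at 7.44 to 8.25 CPM at 0 h and 7.7 to 12.3 in hypoxia, with changes of 0.31, 0.32 and 0.39 that did not pass. VIPR1-AS1 (chr3:42506465-42533258, minus strand) had 111, 111 and 101 counts at 0 h and 3 to 14 in hypoxic libraries. It fell together with VIPR1, a receptor gene for vasoactive intestinal peptide, with changes of -3.52, -3.66 and -3.77 against -2.13, -2.26 and -2.58.

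MRPL23-AS1 (chr11:1983237-1989993, minus strand) had 130, 79 and 117 counts at 0 h, 1, 4 and 2 at 6 h, 2, 19 and 30 at 12 h, and 0 and 2 at 24 h. The 12 h libraries spread widely, and every hypoxic library was below every normoxic one. The log2 fold change was -5.32 at 6 h (SE 0.66) and -2.52 at 12 h (SE 0.49). At 24 h, with 2 counts in all, the pooled normoxic level was 55.5 times the 24 h level (95% counting interval 15.3 to 461). MRPL23, which encodes a protein of the mitochondrial ribosome, was at 19.5 to 20.3 CPM at 0 h and 48.2 and 127.0 CPM at 24 h, a log2 fold change of 2.14 (SE 0.29).

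Sense and antisense changes were next compared pair by pair. The log2 ratio of antisense to sense counts could be formed for 272 pairs, and was higher in 27 and lower in 118 at 6 h, in 23 and 118 at 12 h, and in 38 and 118 at 24 h (limma with Benjamini-Hochberg adjustment over all 5389 opposite-strand pairs in the annotation). Over all those pairs, 12.3% were higher and 33.6% lower at 6 h, 10.6% and 32.9% at 12 h, and 18.0% and 39.3% at 24 h. These include the member pairs. A pair of an lncRNA with a gene of another class was formed with the lncRNA first. Any other background pair had the gene with fewer counts first, so its ratio is not one of antisense to sense. The members' median ratio changes were -0.70, -0.82 and -0.88, where those of all pairs were -0.48, -0.49 and -0.60. The 1556 pairs of another lncRNA with a protein-coding gene had medians of -0.75, -0.76 and -1.06, close to those of the members. The median antisense level per kilobase was 15.3% of its partner's in normoxia and 8.5%, 8.56% and 7.63% at 6, 12 and 24 h, and 46 pairs had the antisense gene above its partner at 0 h and 42 at 24 h.

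Where both genes of a pair were called, they more often changed in the same direction. At 6 h both were called in 106 pairs, of which 74 (69.8%) went the same way, 61 of them lower and 13 higher. At 12 h the counts were 97 and 74 (76.3%), and at 24 h 120 and 82 (68.3%). Other opposite-strand lncRNA and coding pairs gave 305 of 472 (64.6%), 285 of 442 (64.5%) and 351 of 568 (61.8%). Pearson's r between the log2 fold changes of antisense and sense genes across 272 pairs was 0.346, 0.402 and 0.23 at the 3 times (Spearman's rho 0.266, 0.311 and 0.173). These are descriptions, since pairs share libraries and are not replicates. Where the antisense gene was lower at 6 h, in 153 pairs, the sense gene was also lower in 39.9%, against 29.9% of all partners tested and 35.0% of the sense genes in other lncRNA pairs whose lncRNA was lower.

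**Figure D3:**
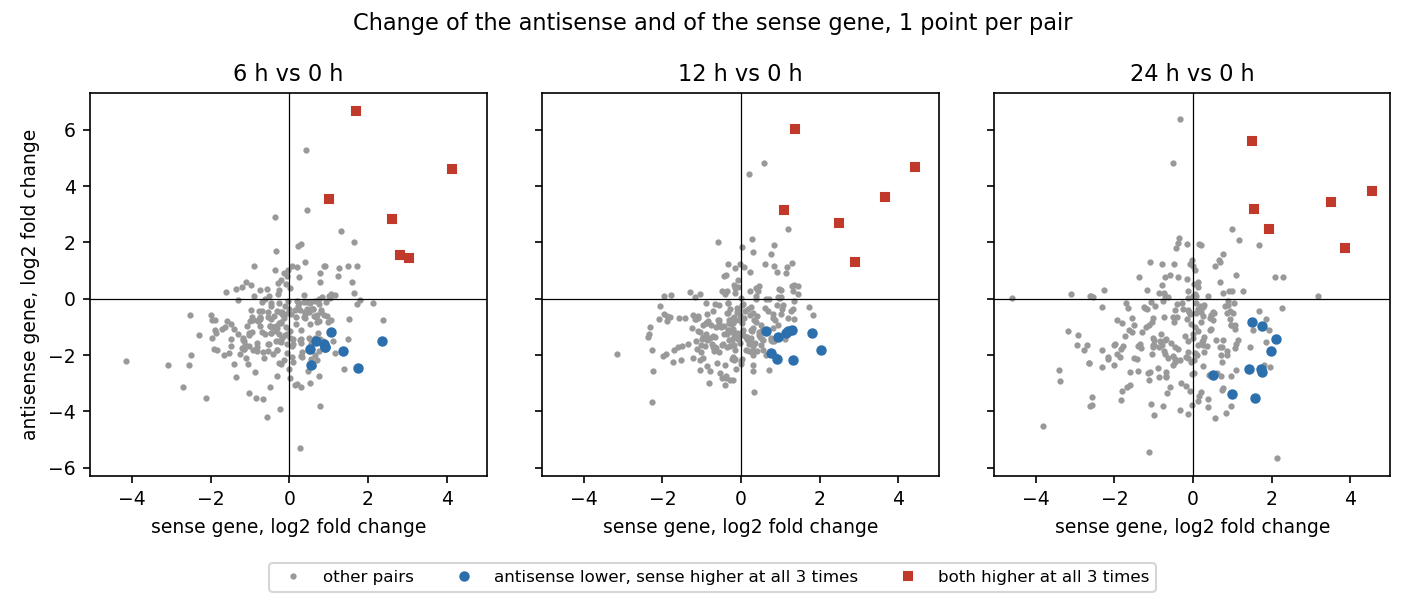
Log2 fold change against 0 h of the antisense gene (y axis) and its sense partner (x axis) for the tested pairs at 6, 12 and 24 h, with the 10 pairs called in opposite directions at all 3 times in blue and the 6 pairs higher in both genes as red squares. The cloud lies mostly below 0 on the antisense axis, and r is 0.346, 0.402 and 0.23.

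Both genes were called at all 3 times and in the same direction in 47 pairs (41 lower and 6 higher), and in opposite directions in 10. In all 10 the antisense gene was lower and the sense gene higher: MMP25, SLC16A1, CSRP1, RAB4A, ARRDC3, CD63, MSANTD2, PRDX6, NIFK and KTN1. This direction was also the commoner one in other lncRNA and coding pairs. At 6 h, 152 of those 1556 pairs had the lncRNA lower and the coding gene higher, and 15 the reverse. The 272 member pairs gave 28 and 4. Counts over all 3 times were not made for the other pairs. SLC16A1-AS1 (chr1:112956415-113047055, plus strand) starts 1178 bases from the start of SLC16A1, the gene of the lactate transporter MCT1. It had 845, 508 and 740 counts at 0 h, 212, 172 and 272 at 6 h, 137, 151 and 232 at 12 h, and 75 and 52 at 24 h. SLC16A1 had 4035, 3392 and 3694 at 0 h, 15371, 14503 and 20777 at 6 h, 10578, 13057 and 16560 at 12 h, and 8198 and 4619 at 24 h. For neither gene did a hypoxic library overlap a normoxic one once scaled by library. The antisense gene changed by -1.50, -1.82 and -2.48 (SE 0.19, 0.19 and 0.24), SLC16A1 by 2.35, 2.04 and 1.73 (SE 0.17, 0.16 and 0.18), and their ratio by -3.84, -3.85 and -4.17 (limma adjusted p = 3.5e-07, 5.7e-07 and 7.3e-07).

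MMP25-AS1 had the largest mean change of ratio among the 10. It was at 3.93 to 4.52 CPM at 0 h, 0.259 to 1.18 at 6 h, 0.8 to 1.07 at 12 h, and 0.471 and 0.327 at 24 h, while MMP25, a membrane-anchored matrix metalloproteinase gene, was at 0.601 to 0.826 CPM at 0 h and 1.2 to 2.53 in hypoxia. Per kilobase the antisense RNA passed from 409% of MMP25 to 21.3%, 35.8% and 19.4%, so the order of the genes turned. CSRP1-AS1 fell by 2.34, 2.14 and 2.50 while CSRP1, a LIM-domain protein of the cytoskeleton, rose by 0.55, 0.91 and 1.42. RAB4A-AS1, which shares 181 exonic bases with the endosomal GTPase gene RAB4A and starts 180 bases from it, fell by 1.77, 1.13 and 3.53 while RAB4A rose by 0.53, 0.62 and 1.59. CD63-AS1 fell by 1.50, 1.35 and 2.59 while CD63, a tetraspanin of late endosomes and exosomes, rose by 0.68, 0.95 and 1.76.

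PRDX6-AS1, which overlaps PRDX6 with no shared exonic base, was at 1.15 to 1.32 CPM at 0 h and 0.128 to 0.622 in hypoxia. PRDX6, a peroxiredoxin gene, was at 103.0 to 118.0 CPM at 0 h and 219.0 to 523.0 in hypoxia, with changes of 1.07, 1.29 and 1.98. NIFK-AS1 and KTN1-AS1 fell most at 6 h (-1.84 and -1.73) and less at 24 h (-0.96 and -0.83). NIFK, a nucleolar protein gene, rose by 1.36, 1.19 and 1.75, and KTN1, which encodes the kinesin receptor kinectin, by 0.91, 1.13 and 1.50. MSANTD2-AS1 fell by 1.71, 1.93 and 2.72, and MSANTD2 rose by 0.90, 0.77 and 0.51, the last of which was -0.38 when scaled by library total alone. Some 24 h calls among the 10 pairs rested on 1 library: without the first 24 h library MMP25 (0.76), MSANTD2 (0.29) and NIFK-AS1 (-0.58) did not pass, and without the second ARRDC3-AS1 (-1.06) and KTN1-AS1 (-0.72) did not. Without 1 or another of the 0 h libraries MMP25 (0.89 to 0.92), KTN1-AS1 (-0.78), NIFK-AS1 (-1.04 to -0.89) and MSANTD2 (0.44 to 0.55) did not pass either.

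**Figure D4:**
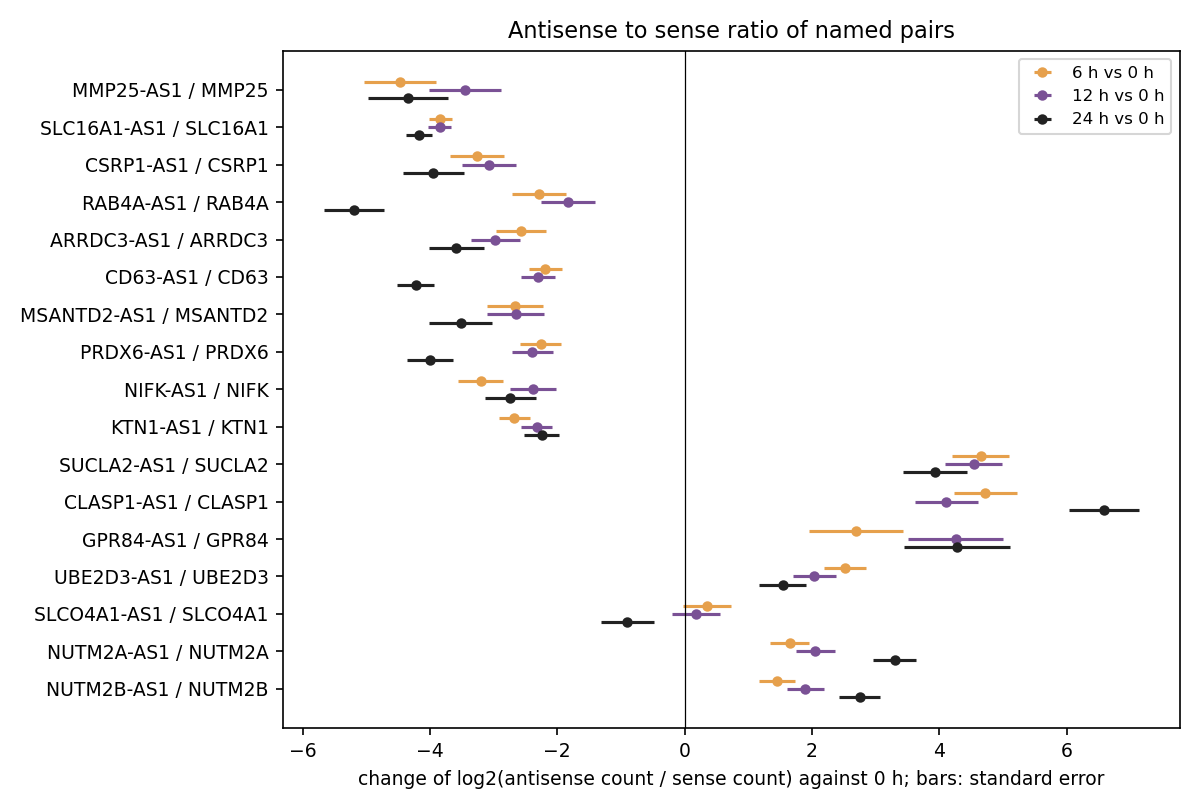
Change of the log2 ratio of antisense to sense counts against 0 h, with standard errors, at 6, 12 and 24 h for the 10 pairs called in opposite directions and for SUCLA2, CLASP1, GPR84, UBE2D3, SLCO4A1, NUTM2A and NUTM2B. SLC16A1 stands at -3.84, -3.85 and -4.17 and SUCLA2 at 4.65, 4.54 and 3.93.

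Partners from a list of hypoxia response genes were held by 5 members: PDK1, SLC16A1, LOXL1, KDM4A and ARRDC3. Of the antisense genes, 1 was higher and 4 lower at 6 h and at 12 h, and 0 and 4 at 24 h, whereas of the sense genes 4 were higher and 1 lower at 6 h and at 12 h, and 3 and 1 at 24 h. PDK1-AS1 (chr2:172480840-172556596, minus strand) had 29, 44 and 46 counts at 0 h, 219, 167 and 147 at 6 h, 81, 86 and 81 at 12 h, and 48 and 24 at 24 h. PDK1, the kinase that shuts pyruvate out of the citric acid cycle, was at 10.1 to 10.7 CPM at 0 h, 20.5 to 32.2 at 6 h, 23.0 to 27.5 at 12 h, and 49.2 and 39.6 at 24 h. The antisense gene was highest at 6 h and the sense gene at 24 h. The antisense changes were 2.40, 1.27 and 0.79 (SE 0.37, 0.37 and 0.43), the last of which did not pass (adjusted p = 0.127, edgeR), and the 12 h call was lost without the first 0 h library (1.05). PDK1 changed by 1.33, 1.29 and 2.08, and the ratio by 1.02, 0.00 and -1.29, passing at 6 h and 24 h in opposite directions (limma adjusted p = 0.0243 and 0.0104).

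ARRDC3-AS1 was low, with 49, 31 and 39 counts at 0 h, 5, 10 and 22 at 6 h, 13, 15 and 16 at 12 h, and 11 and 4 at 24 h. ARRDC3, an arrestin-domain gene of receptor trafficking, was at 37.8 to 52.9 CPM at 0 h, 78.5 to 99.5 at 6 h, 132.0 to 187.0 at 12 h, and 220.0 and 185.0 at 24 h. The antisense gene changed by -1.60, -1.22 and -1.44 and ARRDC3 by 0.87, 1.80 and 2.10. KDM4A-AS1 fell by 0.79, 1.35 and 2.24, while the histone demethylase gene KDM4A was higher by 0.75 at 6 h and 0.48 at 12 h and had a value of -0.06 at 24 h. The 6 h call of KDM4A-AS1 (-0.62 to -0.79) and the 12 h call of KDM4A (0.37 to 0.47) were lost without 1 or another library of either group compared. LOXL1-AS1 fell with LOXL1, an elastin cross-linking enzyme gene: the changes were -1.67, -1.42 and -1.84 against -1.49, -0.998 and -0.75, and the last was -0.36 and did not pass without the first 24 h library and was also lost without most other libraries (-0.84 to -0.68).

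Partners of the cell cycle and repair list were held by 10 members, of which 1 was higher and 9 lower at 6 h (10.0% and 90.0%, against 9.59% and 56.8% of all members and 25.1% and 27.7% of all genes), and 0 and 8 at 12 h and at 24 h. The median at 6 h was -1.31, against -0.92 over all members. Of their partners 1 was higher and 3 lower at 6 h. TMPO-AS1, antisense to a lamina-associated protein gene, fell by 3.04, 2.90 and 2.72 while TMPO had values of 0.19, -0.19 and 0.40 that did not pass. FBXL19-AS1 fell by 2.50, 1.98 and 3.77 while FBXL19 rose by 1.38 and 0.63 at 6 and 12 h and had a value of -0.02 at 24 h. CDKN2B-AS1, also called ANRIL, fell by 0.79, 1.36 and 1.11, together with the cell cycle inhibitor gene CDKN2B, which fell by 0.80, 0.97 and 1.64. GAS6-AS1, the one rise at 6 h (1.01), was lower at 24 h (-1.46).

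The 16 members with a metabolic or mitochondrial partner gave 1 higher, SUCLA2-AS1, and 10 lower at 6 h (62.5%), near the 56.8% of all members. STARD4-AS1 fell by 3.35, 2.12 and 4.14 and STARD4, a cholesterol carrier gene, by 1.02, 1.22 and 0.98. NNT-AS1 fell by 2.74, 1.67 and 2.18 while NNT, the mitochondrial transhydrogenase gene, had values of -0.31, -0.27 and -0.33 that did not pass. CYP1B1-AS1 fell by 2.20, 1.97 and 2.54 together with CYP1B1, an aryl hydrocarbon receptor target, which fell by 4.15, 3.15 and 3.41. Of 21 members with a partner in RNA and protein handling, 2 were higher and 12 lower at 6 h (57.1%), and of 27 with a partner in transcription and chromatin 1 and 14 (51.9%), shares also near that of all members. Members with a partner in adhesion, cytoskeleton and signalling stood nearest to balance at 6 h, with 4 of 16 higher and 3 lower, and 3 and 4 at 12 h, and 1 and 4 at 24 h. Among those higher at 6 h were FAM83A-AS1 (2.84), SH3PXD2A-AS1 (1.15) and TNFRSF10A-AS1 (1.16), and the partner TNFRSF10A (1.72) was also higher.

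Of the 10 members with the most counts, 4 were lower at all 3 times and none was higher at all 3. OIP5-AS1 (chr15:41283958-41322392, plus strand), also known as Cyrano and an RNA that binds microRNAs, was the most counted with 53325 reads. Its level was 190.0 to 201.0 CPM at 0 h, 129.0 to 163.0 at 6 h, 98.6 to 110.0 at 12 h, and 61.6 and 51.8 at 24 h, so each group lay below the one before. The log2 fold changes were -0.43, -0.92 and -1.78 (SE 0.13, 0.13 and 0.16), and the 6 h call was lost without the first 0 h library (-0.41) or replicate 3 at 6 h (-0.35). OIP5, a centromere protein gene, was lower at 6 and 12 h (-0.76 and -0.75), calls lost without some single libraries (-0.77 to -0.53). GABPB1-AS1 (chr15:50354944-50372202, plus strand) was at 83.0 to 97.4 CPM at 0 h, 23.6 to 34.9 at 6 h, 17.4 to 21.2 at 12 h, and 8.77 and 7.41 at 24 h, with changes of -1.60, -2.21 and -3.46. GABPB1, a subunit of the GABP transcription factor of mitochondrial genes, was higher at 6 h by 0.54, or 0.50 and not passing without replicate 3 at 0 h, and had values of -0.01 and 0.15 later. Per kilobase GABPB1-AS1 went from 249% of GABPB1 to 20.4% at 24 h.

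OVCH1-AS1 fell by 1.03, 1.97 and 3.02, although its partner had 1 count in all. SLC9A3-AS1 and the sodium-proton exchanger gene SLC9A3 fell together, least at 12 h, with changes of -1.92, -0.88 and -2.27 against -1.53, -0.90 and -2.64. Their 12 h calls were lost without 1 of the 0 h libraries (-0.79 and -0.89 for the antisense gene, -0.86 and -0.88 for SLC9A3), and that of SLC9A3-AS1 also without the first 12 h library (-0.55). FGD5-AS1 had a value of 0.06 at 6 h and fell by 0.51 and 0.72 later, and WAC-AS1 fell only at 24 h at this threshold (-0.65). THAP9-AS1 was lower at 6 and 12 h (-0.98 and -0.94) and had a value of -0.18 at 24 h, as did THAP9 (-1.06, -0.96 and -0.42). TPT1-AS1, which shares a head-to-head start with TPT1 at a distance of 61 bases, passed at no time (-0.19, -0.35 and 0.08). TPT1, the translationally controlled tumor protein gene, was at 1160 to 1210 CPM at 0 h and 5480 and 15700 CPM at 24 h, so its 24 h libraries differed widely.

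NUTM2A-AS1 and NUTM2B-AS1 were exceptions among the most counted. They were higher at 6 h by 0.43 and 0.48, calls lost without the first 6 h library (0.31 and 0.34) or the second 0 h library (0.40 and 0.44) and, for NUTM2A-AS1, without any 0 h library (0.40 to 0.44). Their partners fell at every time: NUTM2A by 1.21, 1.95 and 3.09 and NUTM2B by 0.97, 1.78 and 2.62. The log2 ratio rose by 1.65, 2.06 and 3.30 for NUTM2A and by 1.45, 1.90 and 2.75 for NUTM2B. These genes are near-identical copies of each other, so the counts of each are uncertain and the pairs are not independent.

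**Figure D5:**
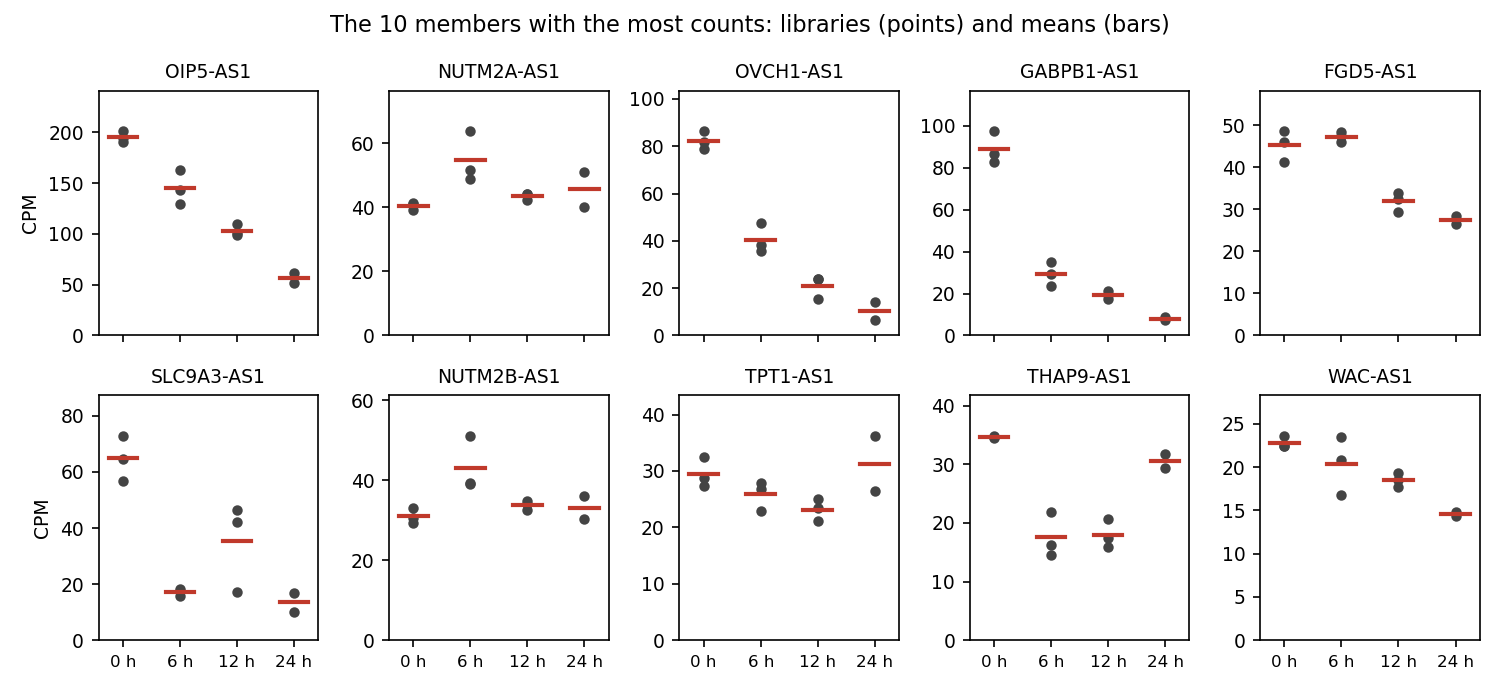
Level (CPM) in every library of the 10 members with the most counts at 0, 6, 12 and 24 h, with group means. The mean of OIP5-AS1 steps down from 195 to 145, 103 and 56.7 CPM, and the group means of TPT1-AS1 lie between 23.2 and 31.3 CPM.

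By position, 227 members overlapped an exon of the partner (median 380 shared bases), and 44 overlapped its span with no shared exonic base, here called intronic. A further 17 stood head to head within 5000 bases, and 4 lay elsewhere. Exon-overlapping members gave 20 higher and 135 lower at 6 h (median -1.01), 18 and 137 at 12 h (-1.02), and 24 and 138 at 24 h (-1.37). Intronic members gave 8 and 20, 8 and 22, and 8 and 20 (medians -0.58, -0.79 and -0.51). Head-to-head members gave 0 and 10, 0 and 8, and 1 and 9 (medians -0.83, -0.78 and -0.81). The 4 elsewhere gave 0 and 1, 1 and 1, and 2 and 2 (medians -0.41, 0.02 and -0.12). More members were thus lower than higher in the first 3 classes, and no test between classes was made.

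Changes between successive hypoxic times were fewer. From 6 to 12 h, 5 members were higher (1.71%) and 10 lower (3.42%), with a median change of 0.02. These shares were near those of all genes, 1.88% and 3.07%. PRR7-AS1 had 41, 41 and 50 counts at 6 h and 16, 13 and 10 at 12 h, a change of -1.69, while PRR7 did not pass. THUMPD3-AS1 changed by -1.68 and PSMG3-AS1 by -1.27. THUMPD3, a tRNA methyltransferase gene, had a value of 0.77 whose call was lost without 1 or another of 5 libraries (0.66 to 0.80) and with scaling by library total alone (0.63). PAX8-AS1 (2.04), CLDN14-AS1 (1.96) and ELF3-AS1 (1.75) rose. Each of these 6 calls was lost without at least 1 single library: THUMPD3-AS1 without replicate 2 at 12 h (-1.49), CLDN14-AS1 without replicate 2 at 6 h (1.90) or 3 at 12 h (1.61), ELF3-AS1 without replicate 2 at 6 h or 2 or 3 at 12 h (1.52 to 1.77), and PRR7-AS1 (-1.71 to -1.39) and PAX8-AS1 (1.67 to 2.19) without replicate 1 or 2 at 6 h or 2 or 3 at 12 h. That of PSMG3-AS1 was lost without any 1 of the 0 h or 6 h libraries or without replicate 2 or 3 at 12 h (-1.35 to -1.13). ELF3-AS1 was at 2.6 to 2.94 CPM at 6 h and 5.04 to 12.1 at 12 h, after 6.3 to 7.38 at 0 h, and ELF3, an epithelial ETS factor gene, rose with it by 1.59, a call lost without the same single libraries (1.40 to 1.70). CLDN14-AS1 was called in both directions against 0 h, lower at 6 h (-1.79) and higher at 24 h (0.82), and the latter call was lost without any 1 of the 0 h or 24 h libraries (0.74 to 0.91) and the value was -0.11 when scaled by library total alone.

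From 12 to 24 h, 16 members were higher (5.48%) and 47 lower (16.1%), against 15.1% and 13.3% of all genes, with a median change of -0.24. With only those 2 groups in the fit 0 members passed edgeR's test, although 74 of 286 had an unadjusted p under 0.05, and DESeq2 called 71 and limma-voom 57 on all libraries. ZNF710-AS1 had 12, 18 and 11 counts at 12 h and 1 and 1 at 24 h, a pooled 12 h level 7.99 times that at 24 h (95% counting interval 2.07 to 68.2). LENG8-AS1 changed by -2.56 and LENG8 by -1.91, and RAB4A-AS1 by -2.40 while RAB4A rose by 0.96. ZSCAN16-AS1 had 17, 30 and 28 counts at 12 h and 38 and 56 at 24 h, a change of 1.72, CLASP1-AS1 changed by 1.57 and CBR3-AS1 by 1.46. The value of LENG8-AS1 was -4.02 without the second 24 h library and still passed. The call of CLASP1-AS1 was lost without the first 24 h library (0.94), without replicate 2 or 3 at 12 h (1.52 and 1.41) and with scaling by library total alone (1.20). That of CBR3-AS1 was lost without the second 24 h library (0.84). CBR3, a carbonyl reductase gene, had a value of 1.01, which did not pass without either 24 h library or replicate 2 or 3 at 12 h (0.94 to 1.03), without the filter on low counts (0.92) or with scaling by library total alone (0.56). The second 24 h library stands apart in its scaling, and without it 38 members were called between these times, 117 without the first 24 h library, and 32 and 34 without replicates 2 and 3 at 12 h.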

How the data were processed

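RNA-seq counts per gene were deposited for 11 libraries. Per the labels and the study's methods, the authors prepared libraries with an Illumina TruSeq Stranded kit, trimmed single-end reads with Trimmomatic, aligned them to GRCh38 (Ensembl release 99) with STAR and counted genes with featureCounts. Strand setting and treatment of multiply mapped reads are not given in the sources used here. The members and gene lists were chosen with earlier results of these data known.

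Genes passing edgeR's filterByExpr (minimum count 10, minimum total 15) were scaled by TMM and tested with edgeR 4.0.16 (quasi-likelihood, time point as the only factor, all libraries) in R 4.3.3, with Benjamini-Hochberg adjustment over all genes and a threshold of 0.05. CPM are TMM-scaled. A prior count of 2 was used for the log2 CPM in which overlap of libraries was judged, and fitted log2 fold changes use edgeR's default prior count. Log2 ratios of antisense to sense counts (pseudocount 0.5) were tested with limma 3.58.1. DESeq2 1.42.0, limma-voom, other scalings and filters, a replicate block and leaving out each library were alternatives. The code was tested on simulated data. An exact permutation test of 3 against 3 libraries cannot go below 0.1 and was not used. Positions came from GENCODE 44, which held 60357 of 60676 identifiers, and promoter windows from RefSeq. Pooled ratios carry exact 95% counting intervals.

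The text names SUCLA2-AS1, the 10 members with the most counts, the 5 highest and 5 lowest mean log2 fold changes among members called alike at all 3 times without overlap, the 10 pairs called in opposite directions at all 3 times, members with a partner in the hypoxia list, the 3 largest changes each way between successive hypoxic times, and their partners. Other named genes complete a count or a list and were chosen after their values were seen. Some members that the rule names are not reported here.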

Additional observations from a re-analysis of the deposited data

Results flagged for a closer look

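For 12 members the effects of 2 times of hypoxia differed, as tested by the change between those times (edgeR's quasi-likelihood test, Benjamini-Hochberg adjustment over all genes). They are the 3 largest differences each way between 6 and 12 h and between 12 and 24 h, which share the 0 h libraries as reference. Of all members, 5.14% were called from 6 to 12 h and 21.6% from 12 to 24 h, against 4.95% and 28.4% of all genes. Between 6 and 12 h, PRR7-AS1 differed by -1.69 on the log2 scale, THUMPD3-AS1 by -1.68 and PSMG3-AS1 by -1.27, and each was lower at 12 h than at 6 h. PAX8-AS1 differed by 2.04, CLDN14-AS1 by 1.96 and ELF3-AS1 by 1.75, and each was higher at 12 h. All 6 of these calls were lost without at least 1 single library, at values of -1.71 to -1.39 for PRR7-AS1, -1.49 for THUMPD3-AS1, -1.35 to -1.13 for PSMG3-AS1, 1.67 to 2.19 for PAX8-AS1, 1.61 and 1.90 for CLDN14-AS1 and 1.52 to 1.77 for ELF3-AS1. Between 12 and 24 h, ZNF710-AS1 differed by -2.93, with 1 count in each 24 h library, so that this fitted value is no bound. LENG8-AS1 differed by -2.56 and RAB4A-AS1 by -2.40, while ZSCAN16-AS1 differed by 1.72, CLASP1-AS1 by 1.57 and CBR3-AS1 by 1.46. Without the first 24 h library CLASP1-AS1 was at 0.94 and did not pass (nor without replicate 2 or 3 at 12 h, at 1.52 and 1.41), and without the second CBR3-AS1 was at 0.84 and did not. With only the 12 and 24 h libraries in the fit none of these 6 passed (adjusted p = 0.0658 to 0.0792, edgeR).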

How the results depend on the processing

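Requiring at least 10 counts in every library left 102, 107 and 105 called members at 6, 12 and 24 h (194, 195 and 204 as reported), 38 from 12 to 24 h (63 as reported), and 74, 74 and 82 pairs with a changed ratio (145, 141 and 156 as reported), since it leaves fewer genes tested. From 6 to 12 h, where 15 members were reported, DESeq2 called 28 and a fit without the filter on low counts 27, and from 12 to 24 h a fit of only those libraries called 0. Fits lacking any single library called 166 to 225 members at 6 h, 167 to 217 at 12 h, 192 to 206 at 24 h, 1 to 51 from 6 to 12 h and 32 to 117 from 12 to 24 h, and 112 to 171, 106 to 178 and 140 to 179 pairs. The labels do not say whether the numbers 1 to 3 pair the libraries. Deviations from group means of same-numbered libraries correlated at -0.156 to 0.207 (median -0.0493), with 2 of 15 pairs over 0.1. Differently numbered libraries gave -0.27 to 0.28 (median 0.024), with 3 of 30 over 0.1. With 2 libraries at 24 h, deviations there mirror each other, so these values do not settle the pairing. With a replicate block, 187, 186 and 199 members were called against 0 h, 9 from 6 to 12 h and 52 from 12 to 24 h, and 139, 134 and 148 pairs, and among the calls lost were those of PSMG3-AS1 (-1.27) and THUMPD3 (0.77) from 6 to 12 h, CBR3 (0.97) from 12 to 24 h, and MMP25 (0.92), MSANTD2 (0.50), NIFK-AS1 (-0.94) and LOXL1 (-0.68) at 24 h. Scaling by library total alone turned the direction at 24 h against 0 h of CLDN14-AS1 (-0.11), GABPB1 (-0.82), L3MBTL2 (-0.58), MSANTD2 (-0.38), NUTM2A-AS1 (-0.78), NUTM2B-AS1 (-0.85) and TPT1-AS1 (-0.88). It gave 4 higher and 76 lower members from 12 to 24 h in place of 16 and 47, with 4.24% and 23.1% of all genes. With single libraries left out, GPR84-AS1 from 12 to 24 h ran from -3.21 (without 24 h replicate 1) to 1.29, and PRR7 at 24 h from -0.89 (without 24 h replicate 2) to 1.37. Except for the counts affected by fewer genes or libraries, the cause was not tested. Of 7657 values for 410 named changes, 7151 kept direction and side of the threshold, 342 no longer passed, 155 newly passed and 9 turned. With a biological coefficient of variation of 19.6% and 2 libraries at 24 h, precision is limited, and the smallest change detectable in members with few counts was not computed.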

Other observations

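Beside the members already described, 9 others were higher at all 3 times. The 6 pairs with both genes higher at all 3 times were described above, so none of the partners of these 9 could be. DENND5B-AS1 had the highest level of them, with mean levels of 6.41 CPM at 0 h and 20.7, 22.7 and 28.4 CPM at 6, 12 and 24 h, while DENND5B, which encodes a regulator of Rab GTPases, had log2 fold changes of -0.33, 0.02 and -0.36 that did not pass. ZNF433-AS1 went from 1.9 to 2.88, 3.3 and 7.42 CPM while ZNF433 was lower at 6 h (-1.09). KIF23-AS1 went from 0.274 to 2.07, 1.11 and 0.949 CPM while KIF23, a kinesin gene of cytokinesis, had values of -0.36, -0.60 and -0.44 that did not pass. PITRM1-AS1 rose by 1.87, 1.68 and 1.95 while PITRM1, a mitochondrial protease gene, was higher at 12 h alone (0.30). PARD6G-AS1 rose by 1.14, 1.22 and 1.22 and PARD6G, a cell polarity gene, passed at no time. HLA-F-AS1 rose by 1.02, 1.23 and 1.17 and HLA-F was higher at 24 h (0.56).

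NOP53-AS1 rose by 1.93, 1.90 and 1.90 while the ribosome assembly gene NOP53 was higher at 12 and 24 h (0.84 and 1.68). EFCAB10-AS1 rose by 2.02, 1.59 and 1.36 and EFCAB10 was higher at 6 h (1.66). PRR34-AS1 rose by 0.94, 1.25 and 2.50, and its partner was too low to test.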
